A study of Mus musculus with 36 samples.

Results

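The 7 serotonin receptor genes Htr1a, Htr1b, Htr2a, Htr2c, Htr3a, Htr4 and Htr5a were followed through the brains of mice given histone deacetylase (HDAC) inhibitors. Their probes were taken by gene symbol and numbered 10 among the 45281 probes of the Illumina MouseWG-6 BeadChip. The 7 genes themselves were chosen with earlier results of these data known. Htr2a had 3 probes, Htr4 had 2 and each of the other 5 genes had 1. Adult male mice, labelled C57BL/6J and aged 11 weeks, were injected intraperitoneally once a day for 10 days, and brains were collected 1 h after the last dose. The 4 treatments were vehicle (saline with PEG-400 and DMSO), Cpd-60 at 45 mg/kg, SAHA at 25 mg/kg and CI-994 at 10 mg/kg. Vehicle and Cpd-60 were given at 7.5 mL/kg but SAHA and CI-994 at 5 mL/kg, so only Cpd-60 matched the vehicle in volume. The hippocampus (HIP), the prefrontal cortex (PFC) and the nucleus accumbens (NAc) were taken from the same animals. Each array held RNA pooled from 2 mice, with 3 pools for each of the 12 groups and 36 arrays in all. The mice were bought from different suppliers, and a pool hides the difference between its animals. One Cpd-60 pool, replicate 2, is named in its title and source for other mice than in its description, and the title was followed.

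Serotonin acts in the forebrain through 7-membrane receptors and a single family of ion channels. Htr1a and Htr1b encode receptors coupled to inhibitory G proteins, which lower cyclic AMP and open potassium channels. Htr1a is known from hippocampal pyramidal and granule cells and Htr1b from the terminals of striatal projection neurons. Htr2a and Htr2c encode receptors that signal through Gq and phospholipase C, the former typical of cortical layer V pyramidal cells and the latter very abundant in choroid plexus. Htr3a encodes the obligatory subunit of the serotonin-gated cation channel and marks a class of cortical interneurons. Htr4 encodes a receptor coupled to Gs, and Htr5a one coupled to inhibitory G proteins. Cpd-60 is a slow-binding benzamide selective for HDAC1 and HDAC2, SAHA is a fast-binding hydroxamic acid with broader selectivity, and CI-994 is another benzamide.

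Htr1a and Htr1b turned out to be ordered in opposite ways across the regions, and the stretches of 250 bases before their annotated starts are shown for that reason. They come from RefSeq on GRCm38.p6, where 5 of the 7 genes had an entry. Htr1a lies on the plus strand (chr13:105443443-105443692) and Htr1b on the minus strand (chr9:81633833-81634082). Capitals mark the GC box GGGCGG, which was searched on both strands.
Htr1a: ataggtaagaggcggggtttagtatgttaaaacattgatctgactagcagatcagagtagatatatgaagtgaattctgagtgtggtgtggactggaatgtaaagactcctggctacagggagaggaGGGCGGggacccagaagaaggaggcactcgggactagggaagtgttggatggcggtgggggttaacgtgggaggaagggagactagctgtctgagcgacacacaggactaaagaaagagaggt
Htr1b: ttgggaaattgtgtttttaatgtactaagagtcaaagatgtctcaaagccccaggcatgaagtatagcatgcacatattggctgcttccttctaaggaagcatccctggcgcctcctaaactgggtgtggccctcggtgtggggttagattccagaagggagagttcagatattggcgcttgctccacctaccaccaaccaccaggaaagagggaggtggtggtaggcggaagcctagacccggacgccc
The Htr1a stretch held 1 GC box, 123 bases before the start, and the Htr1b stretch held none. Of the 32851 promoters of the same length in the table, 32.7% held at least 1. Neither stretch held the TATA box letters TATAAA on either strand, which 12.4% of all promoters did. Both held 6 CpG dinucleotides, equal to the median of all promoters, and their GC content was 50.4% for Htr1a and 52.4% for Htr1b. The arrays measured transcripts and no protein or chromatin at these sites.

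Values are given as log2 of the quantile-normalized intensity. No background was subtracted, so a probe without signal sits near the median of all probes, 6.62, and differences of dim probes are compressed. A probe was called detected on an array at a detection p of 0.01 or below, the p being the one deposited for each probe and array. At this threshold 37.3% ± 2.75 (SD, n = 36) of all probes were detected, between 31.87% and 43.33% on single arrays. The 3 arrays of a group are separate pools of animals. Most marker genes followed their regions in vehicle mice, at an adjusted p under 0.05 by limma. Of the 9 striatal markers tested, all 9 were higher in NAc than in PFC. Of 5 cortical markers, 4 were lower in NAc than in PFC, beside 20.5% of all probes called in that contrast. Of 6 hippocampal markers tested, 4 were higher in HIP than in PFC, beside 26% of all probes. Between HIP and NAc 4 of these 6 were higher in HIP and 1 was lower, beside 16.9%. Between NAc and PFC 2 of 5 hippocampal markers were higher in NAc. Each region was run on 2 BeadChips of its own, so that region and BeadChip cannot be told apart. In these tissue pieces fewer cells of a type and less RNA per cell cannot be told apart either.

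Only 3 of the 7 genes had a probe clearly above background. Htr1a was detected on all 36 arrays, Htr3a on 29 and Htr1b on 26. Htr1a was detected on 12 of 12 arrays in each region. Htr1b was detected on 12 arrays in NAc, 11 in PFC and 3 in HIP. Htr3a was detected on 12 arrays in PFC, 12 in HIP and 5 in NAc. Htr4 lay at the border, since probe ILMN_2776237 was detected on 6 arrays in every region while its other probe, ILMN_2743188, was detected on 1 array in all.

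The probes of the other genes were near or at background. A probe without signal does not show that its gene was silent. The 2 probes of Htr4, for instance, were detected on 18 and 1 of the 36 arrays. The 3 Htr2a probes were detected on 6, 2 and 0 of the 36 arrays, and the brightest of them, ILMN_2725529, on 3 arrays in PFC, 1 in NAc and 2 in HIP. Htr5a was detected on 1 array, in PFC. Htr2c was detected on none of the 36 arrays, and a further pair of probes annotated as "5-Htr2c, GPCR", which the symbol rule leaves out, was likewise detected on none. The choroid plexus marker Ttr, which encodes transthyretin, was detected on all 36 arrays and reached 13.32, 13.11 and 11.25 in vehicle HIP. The Htr2c probe read 6.51 ± 0.09 in vehicle HIP, 6.56 ± 0.02 in PFC and 6.56 ± 0.04 in NAc (SD, n = 3). At a looser detection p of 0.05 Htr2c was still detected on 0 arrays, Htr5a on 6, and the brightest probes of Htr2a and Htr4 on 16 and 26.

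**Figure D1:**
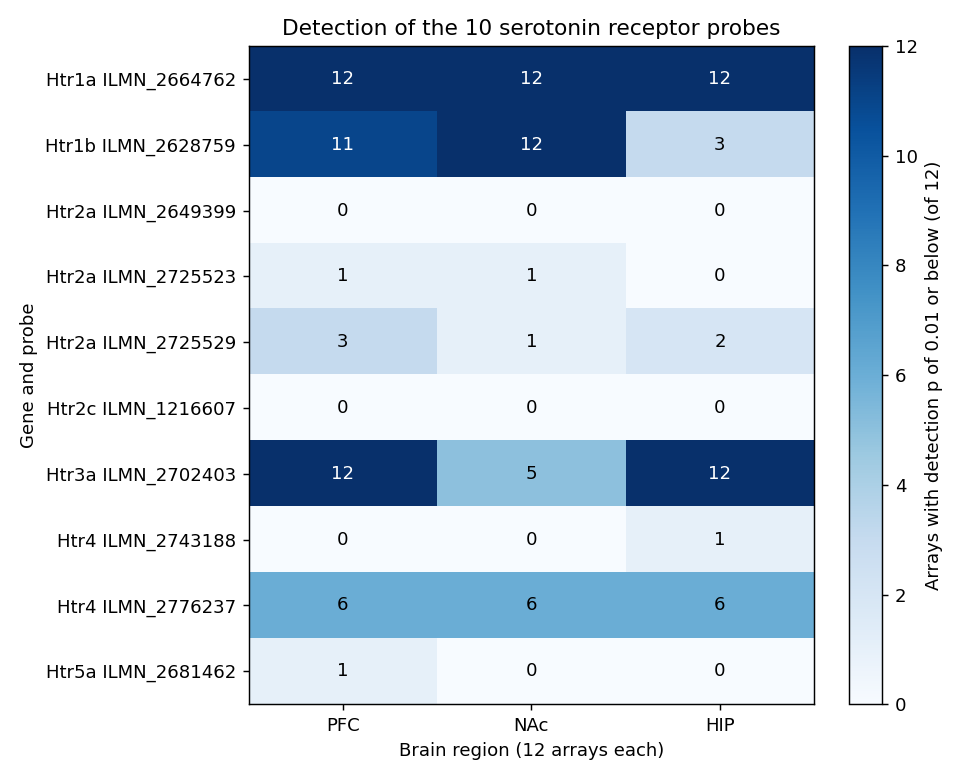
Number of arrays, of 12 in each region, on which each of the 10 probes had a detection p of 0.01 or below, with regions as columns and probes as rows. Htr1a reached 12 in every region, Htr1b fell from 12 in NAc to 3 in HIP, Htr3a was lowest in NAc at 5, and Htr2c was at 0 throughout.

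The first comparison was between regions in vehicle-treated mice. Htr1a was highest in HIP and Htr1b highest in NAc, whereas Htr3a was lowest in NAc. In the limma fit over all 36 arrays the background of such calls was high: at a Benjamini-Hochberg adjusted p under 0.05, 26% of the 21632 probes tested differed between HIP and PFC, 20.5% between NAc and PFC and 16.9% between HIP and NAc. Of the member probes tested, 3 of 5 were called between HIP and NAc, 2 of 6 between NAc and PFC and 2 of 5 between HIP and PFC.

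Htr1a, the inhibitory autoreceptor of serotonergic neurons and a postsynaptic receptor in the hippocampus, read 7.91, 8.02 and 7.99 in the 3 vehicle pools of HIP. It read 7.14, 7.24 and 7.23 in PFC, and 7.18, 7.01 and 6.90 in NAc. All HIP arrays lay above all arrays of the other regions. The level in HIP exceeded that in NAc by 0.94 ± 0.09 (SE) on the log2 scale, 1.92-fold, with an adjusted p of 1.17e-08. It exceeded PFC by 0.77 ± 0.09, 1.70-fold (adjusted p = 8.62e-07). PFC and NAc overlapped and were not separated by the test (NAc minus PFC -0.17, 95% interval -0.37 to 0.02, adjusted p = 0.204). Over the mean of all 4 treatments, with 12 arrays to a region, the same difference was -0.22 and passed (adjusted p = 0.000293). Over all 4 treatments the 12 HIP arrays spanned 7.78 to 8.23 with a median of 8.02, against 7.11 to 7.40 in PFC and 6.85 to 7.31 in NAc.

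Htr1b, a terminal autoreceptor and heteroreceptor, read 7.42, 7.28 and 7.28 in vehicle NAc, 6.93, 6.77 and 6.78 in PFC, and 6.72, 6.83 and 6.53 in HIP. The NAc arrays stood apart from the rest, and HIP and PFC overlapped. NAc exceeded PFC by 0.50 ± 0.09 (1.41-fold, adjusted p = 1.47e-04), and HIP was below NAc by a difference of -0.63 ± 0.09 (adjusted p = 5.65e-06). HIP minus PFC was -0.13, with a 95% interval of -0.32 to 0.05 (adjusted p = 0.295), whereas over the mean of all 4 treatments it was -0.20 and passed (adjusted p = 0.000437). It was detected on 2 of the 3 vehicle HIP arrays, at 6.72 and 6.83. These lay close to the detection limit, since the dimmest detected probe of an array read between 6.66 and 6.83. Over all 4 treatments Htr1b spanned 6.99 to 7.42 in NAc, 6.64 to 6.95 in PFC and 6.53 to 6.83 in HIP, so that the NAc arrays lay above all others.

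Htr3a, the channel subunit, read 7.00, 6.97 and 7.04 in vehicle PFC and 7.03, 7.10 and 7.04 in HIP, but 6.81, 6.61 and 6.47 in NAc. The NAc values lay below all others, and Htr3a was detected on only 1 of the 3 arrays. HIP exceeded NAc by 0.43 ± 0.08 (1.34-fold, adjusted p = 2.25e-04), and NAc was below PFC by a difference of -0.38 ± 0.08 (adjusted p = 8.75e-04). HIP and PFC differed by 0.05, with an interval of -0.11 to 0.21 (adjusted p = 0.674). Without vehicle replicate 3 the NAc to PFC difference was -0.28, with an adjusted p of 0.0496. Interneuron markers did not move as one between NAc and PFC. Of 8 tested, Cck, Pvalb, Vip and Npy were lower in NAc and Gad1 was higher, and the list median was -0.08 against -0.0081 over all probes tested. Cck, also made by cortical pyramidal cells, differed by -3.66 ± 0.21 and Pvalb by -1.98 ± 0.21, while Gad1, also made by striatal projection neurons, differed by 1.60 ± 0.26. Vip, the neuropeptide of an interneuron class that carries Htr3a, was detected on no vehicle NAc array and was at least 1.99-fold higher in PFC (adjusted p = 4.57e-07). The list mean was between 8.96 and 9.03 in vehicle NAc, 9.34 and 9.58 in PFC, and 9.50 and 9.68 in HIP. The part of interneuron content in the Htr3a difference was not tested.

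Of the dim genes, 1 probe passed. Htr2a probe ILMN_2725523 read 6.61, 6.88 and 6.63 in vehicle PFC and 6.58, 6.50 and 6.44 in HIP, a difference of -0.20 ± 0.07 in HIP (adjusted p = 0.0448). The probe was detected on only 1 of these 3 PFC arrays and on none of the HIP arrays. It met the filter for testing, a detection p of 0.2 or below in all 3 arrays, in PFC and not in HIP. It was thus tested through the region where it read higher, and no conclusion is drawn from this call. Without vehicle replicate 2, which holds the 6.88, the difference was -0.11 with an adjusted p of 0.427. The brighter Htr2a probe, ILMN_2725529, and the Htr4 probe passed in no region contrast in which they were tested, with differences between -0.11 and -0.02. ILMN_2725529 did not meet the filter for HIP against PFC and was not tested there. Htr5a and Htr2c did not pass the filter on detection in vehicle mice and were not tested here. Over the mean of all 4 treatments Htr5a passed between HIP and PFC (adjusted p = 0.0329) and between NAc and PFC (adjusted p = 0.0128), and Htr2a probe ILMN_2725523 between NAc and PFC (adjusted p = 0.0462). Htr5a was detected on 1 and this Htr2a probe on 2 of the 36 arrays, so neither a direction nor a fold is given.

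**Figure D2:**
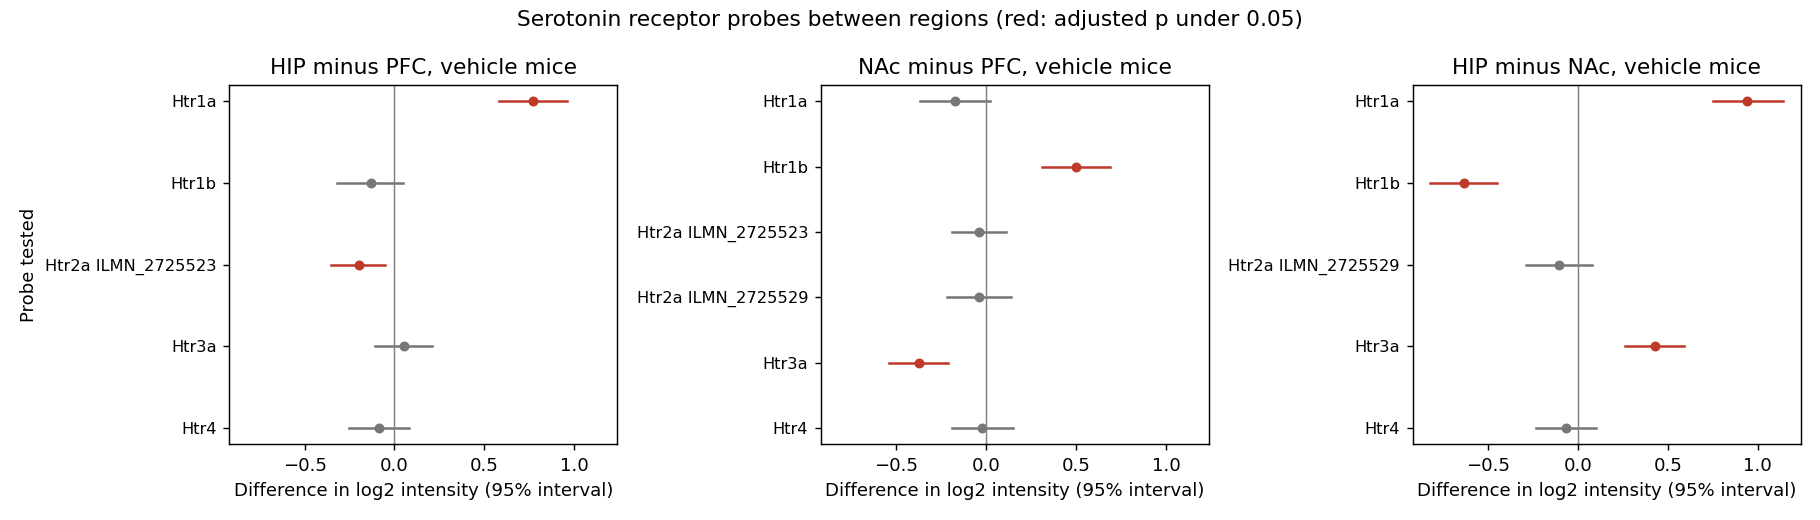
Difference in log2 intensity between regions in vehicle mice for each member probe tested, with 95% intervals from limma (n = 3 pools per region, red where the adjusted p was under 0.05). Htr1a was 0.94 higher and Htr1b 0.63 lower in HIP than in NAc (a difference of -0.63), and Htr3a was 0.43 higher.

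Subtracting background enlarged these differences without changing a call. With normexp background correction (limma's neqc), Htr1a was 1.69 higher in HIP than in NAc and 1.30 higher than in PFC. Htr1b was 1.17 higher in NAc than in PFC and differed by -1.56 between HIP and NAc. Htr3a differed by 1.17 between HIP and NAc and by -1.05 between NAc and PFC.

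The genes whose levels ran closest to each receptor were picked over the 36 arrays, across regions in which the receptors differed. A shared regional order would thus follow from the selection. Among 19446 probes, Pcdh20 (r = 0.97), D4Bwg0951e (r = 0.96) and C1ql2 (r = 0.96) were most like Htr1a. C1ql2, a synaptic protein of dentate granule cells, was itself higher in HIP than in PFC by 3.61 ± 0.12. Dclk3, Sh2d5 (both r = 0.94) and Zbtb7c (r = 0.93) were most like Htr1b. Hapln4 (r = 0.91), Fkbp1b (r = 0.89) and Nfix (r = 0.88) were most like Htr3a. Htr1a and Htr1b themselves correlated at -0.81. These are Pearson correlations of log2 intensities, given as descriptions, and the 36 points share 3 regions, 12 pools and 6 BeadChips.

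Outside the 7 genes, 2 further receptor genes showed clear regional contrasts. Of the 7 other serotonin receptor genes on the array, Htr1d and Htr5b carried the regional calls. Htr1d, another inhibitory 5-HT1 receptor, read 8.01, 8.33 and 8.05 in vehicle NAc and 6.61 on average in both PFC and HIP. It was detected on all 3 NAc arrays, on 1 in PFC and on none in HIP, so that NAc was at least 2.69-fold higher than HIP (adjusted p = 1.15e-10). Htr5b read 7.67, 7.84 and 7.75 in HIP, 7.14, 7.00 and 6.95 in PFC, and 6.69, 6.56 and 6.67 in NAc. HIP exceeded PFC by 0.72 ± 0.09 (adjusted p = 8.99e-07) and was at least 2.03-fold above NAc, where Htr5b was detected on no vehicle array. Htr1d, like Htr1b, was highest in NAc, and Htr5b, like Htr1a, was highest in HIP.

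Probes for the rest of the pathway were detected in part, and an undetected probe does not show that its gene was silent. Of 9 genes for serotonin synthesis, transport and breakdown, Tph1, Maoa and Fev were detected on no array, Slc6a4, the serotonin transporter, and Slc18a2 on 1 each, and Tph2, the neuronal tryptophan hydroxylase, on 9. Ddc, which decarboxylates 5-hydroxytryptophan and L-DOPA, was detected on all 36 arrays and was higher in NAc than in PFC by 0.63 ± 0.10 (adjusted p = 2.45e-05). It was the 1 call of 4 genes tested in that contrast, with 0 of 4 between HIP and PFC and 2 of 5 between HIP and NAc. Of the 14 G protein and effector genes, 11 were tested between HIP and NAc, with 5 higher and 2 lower in HIP, beside 16.9% of all probes. Adcy1, a calcium-stimulated adenylyl cyclase, was 2.15 ± 0.20 higher, and Kcnj3, a subunit of the potassium channel that Htr1a opens, was 0.49 ± 0.08 higher. Kcnj6, another subunit, was detected on no vehicle NAc array and was at least 1.13-fold higher in HIP (adjusted p = 0.00372). Rgs4, which shortens G protein signals, was lower by a difference of -1.31 ± 0.14. In this list 3 of 11 were called between HIP and PFC, near the 26% of all probes, and 4 of 11 between NAc and PFC, beside 20.5%. Of 8 genes for receptor partners and RNA editing, 2 were called between HIP and PFC, a share near the 26% of all probes. They were Adar and Adarb1, which edit RNA including the Htr2c transcript, with differences of -0.47 and -0.46. Between NAc and PFC 1 of 6 tested was called, and between HIP and NAc 1 of 8.

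**Figure D3:**
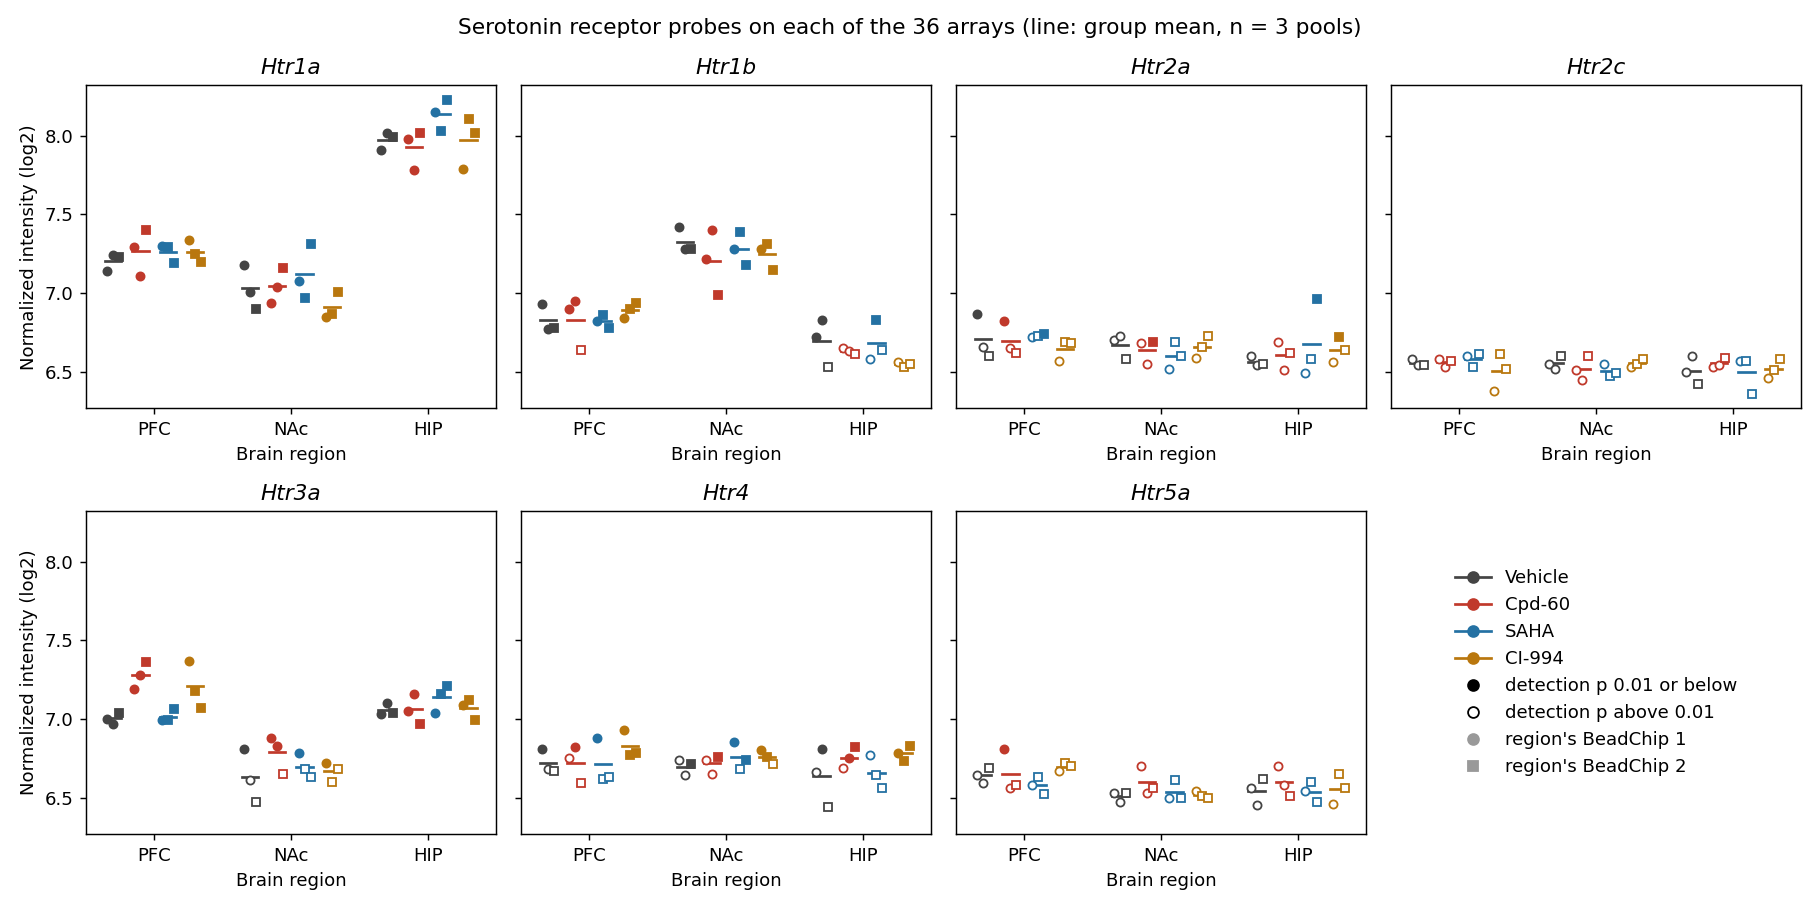
Log2 normalized intensity of the brightest tested probe of each gene (for Htr2c its only probe) on every array, by region and treatment, with the group mean as a line (n = 3 pools), open symbols for a detection p above 0.01, and circles and squares for the region's 2 BeadChips. In PFC the 3 Cpd-60 pools of Htr3a sit between 7.19 and 7.36, above the vehicle pools at 6.97 to 7.04, and the regional order of Htr1a and Htr1b holds under every treatment.

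The second comparison was between each drug and vehicle within each region, over 4 groups per region. No member changed at an adjusted p under 0.05 by limma, and neither did any other probe: 0 of 22156 in PFC, 0 of 23242 in NAc and 0 of 23275 in HIP, or 0% in all 9 contrasts. At an unadjusted p under 0.05 the share of all probes was 5.19% for Cpd-60, 2.25% for SAHA and 3.98% for CI-994 in PFC. It was 4.77%, 2.05% and 1.99% for the same drugs in NAc, and 5.26%, 9.37% and 3.24% in HIP. Against this background 2 of 48 member tests passed, both of them Htr3a in PFC. With 3 pools against 3, an exact two-sided permutation test cannot go below p = 0.1.

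Htr3a read higher in PFC under Cpd-60, at the unadjusted threshold only. The 3 pools read 7.19, 7.28 and 7.36, all above the vehicle values of 7.00, 6.97 and 7.04. The difference was 0.27 ± 0.08 (SE), 1.21-fold, with a 95% interval of 0.11 to 0.44, an unadjusted p of 0.0039 and an adjusted p of 0.775 by limma. It was 0.25 on the region's first BeadChip, with 2 pools of each group, and 0.32 on the second, with 1 of each. With background correction it was 0.59. Without the Cpd-60 pool whose labels disagree it was 0.27 (unadjusted p = 0.0106 by limma).

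Under CI-994, Htr3a in PFC read 7.37, 7.18 and 7.07, again above the vehicle pools, by a narrow margin in the third. The difference was 0.20 ± 0.08 (1.15-fold, 95% interval 0.03 to 0.37, unadjusted p = 0.0229, adjusted p = 1.00 by limma). Without its replicate 1 it was 0.12 with an unadjusted p of 0.124 by limma. Without vehicle replicate 2 it was 0.19 (unadjusted p = 0.0614 by limma). By BeadChip it was 0.39 with 1 treated pool and 0.08 with 2, and with background correction it was 0.44. Both comparisons used the same 3 vehicle pools. Under SAHA the pools read 6.99, 6.99 and 7.06, and the difference was 0.01, with an interval of -0.16 to 0.18. The doses and injection volumes differed between the drugs, so that the 3 values stand side by side only.

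Outside PFC the Htr3a values were as follows. In NAc under Cpd-60 the pools read 6.88, 6.83 and 6.65, against 6.81, 6.61 and 6.47 in vehicle, and the groups overlapped (difference 0.16, 95% interval -0.05 to 0.36). This difference did not pass in the fit as designed but did with BeadChip as a block (unadjusted p = 0.0372 by limma), without vehicle replicate 1 (0.25, unadjusted p = 0.0179 by limma) and without Cpd-60 replicate 3 (0.23, unadjusted p = 0.04 by limma). In HIP the difference under Cpd-60 was 0.00 with an interval of -0.15 to 0.15. Under CI-994 it was 0.04 in NAc and 0.01 in HIP. The test of the drug effect between the 3 regions gave an unadjusted p of 0.0747 for Cpd-60, 0.216 for CI-994 and 0.804 for SAHA by limma's moderated F test (adjusted p = 1.00 for each), so a regional restriction of the Htr3a difference was not shown. With BeadChip as a block the unadjusted p for Cpd-60 was 0.0481 by limma (adjusted p = 1.00). Over all 19447 probes in that test, 1.97% passed an unadjusted p under 0.05 for Cpd-60, 3.75% for SAHA and 1.3% for CI-994, and 0% passed after adjustment. No member passed either threshold without the block.

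Markers of interneurons and of other cell types were read beside this result. In PFC under Cpd-60, 0 of 9 interneuron markers tested passed an unadjusted p under 0.05, and the list mean ranged from 9.27 to 9.72 against 9.34 to 9.58 in vehicle. Vip differed by -0.05 ± 0.15 and Npy by -0.10 ± 0.15. Under CI-994, 1 of the 9 passed, Calb2, the calretinin gene, at 0.22 ± 0.10 (unadjusted p = 0.0453 by limma). Among the glial and cortical marker lists in PFC under Cpd-60, Gja1 (1 of 5 astrocyte markers) and Cnp (1 of 6 for oligodendrocytes) were higher at an unadjusted p under 0.05, and Rorb (1 of 5 for cortex) was lower. The astrocyte list mean was between 9.47 and 9.58 in the Cpd-60 pools and 9.34 and 9.45 in vehicle, without overlap, with a list median of 0.16. In the striatal list 1 of 8 was higher at that threshold. The microglial, endothelial, choroid plexus, hippocampal, and septal and hypothalamic lists had 0 markers past it. Under CI-994 Aldh1l1 of the astrocyte list (-0.30 ± 0.09) and Tek of the endothelial list (-0.18 ± 0.08) were lower and Cnp (0.32 ± 0.13) was higher, and the astrocyte list mean, between 9.33 and 9.50, overlapped vehicle. The part of cell content in the Htr3a differences was not tested.

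The remaining 46 member tests did not pass. Their differences lay between -0.15 and 0.17, and their 95% intervals reached at most from -0.35 to 0.37. Htr1a in HIP under SAHA read 8.15, 8.03 and 8.23 against 7.91, 8.02 and 7.99 in vehicle. These groups did not overlap, and the difference was 0.17 with an interval of -0.03 to 0.37 (unadjusted p = 0.092 by limma). With these 2 groups alone the unadjusted p was 0.0454 by limma (adjusted p = 0.333). SAHA in HIP was also the contrast with the highest share of probes past the unadjusted threshold. Its 3 SAHA arrays detected 34.35%, 32.08% and 32.31% of all probes, against 39.67%, 39.73% and 37.99% in vehicle. Before normalization Htr1a read 275.2, 183.1 and 214 under SAHA and 287.9, 290.7 and 249.7 in vehicle, so the higher level appeared only after normalization. The part of array signal in the SAHA differences in HIP was not tested. Htr1b in HIP was detected on no pool under Cpd-60 or CI-994, against 2 of 3 in vehicle, which lay close to the detection limit. It read 6.56, 6.53 and 6.55 under CI-994 and 6.72, 6.83 and 6.53 in vehicle, a measured difference of -0.15 with an interval of -0.33 to 0.03. In HIP only the Cpd-60 group met the filter for Htr1b, a detection p of 0.2 or below in all 3 pools. The CI-994 comparison was thus tested through a group outside it.

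Htr1a in PFC differed from vehicle by 0.06 under each of the 3 drugs. Htr1b in NAc, where it was brightest, differed by -0.12 under Cpd-60, -0.04 under SAHA and -0.08 under CI-994. Htr4 was tested in all 3 regions, and its largest difference was 0.15 in HIP under CI-994 (interval -0.05 to 0.34), where 3 of 3 treated pools and 1 of 3 vehicle pools were detected. Htr2a was tested in PFC and NAc and Htr5a in PFC, with all differences between -0.09 and 0.05. In PFC only the CI-994 group met the filter for Htr5a, so its tests under Cpd-60 and SAHA entered through that group. Htr2c was tested in no region.

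**Figure D4:**
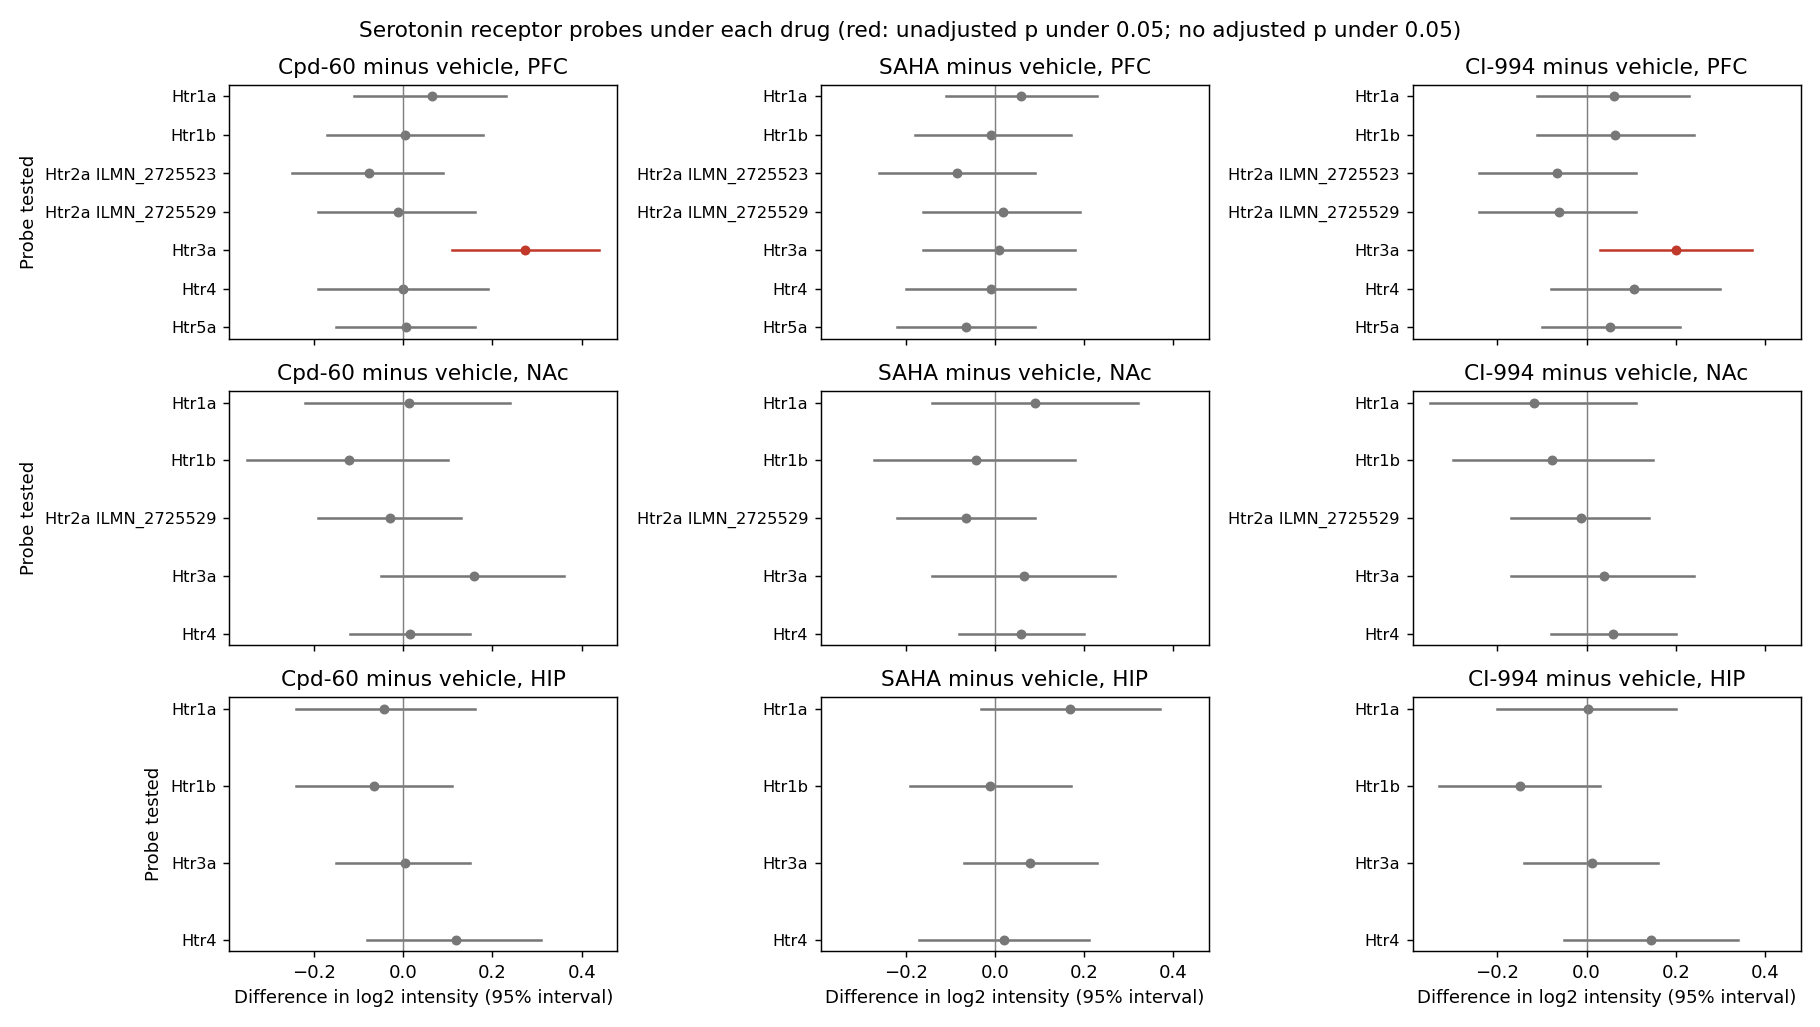
Difference in log2 intensity from vehicle for every member probe tested, with regions as rows, drugs as columns and 95% intervals from limma (n = 3 pools per group, red where the unadjusted p was under 0.05). Htr3a in PFC stands at 0.27 under Cpd-60 and 0.20 under CI-994, and 46 of the 48 intervals include 0.

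The other genes of the pathway were tested in the same way, and none passed after adjustment. For the counts that follow, the share of all probes past an unadjusted p under 0.05 was between 1.99% and 9.37% in single contrasts. Of 39 tests over the other serotonin receptor genes, 1 was higher and 3 lower at an unadjusted p under 0.05. Htr5b in HIP was lower under SAHA by a difference of -0.21 ± 0.07 (unadjusted p = 0.0128 by limma) and under CI-994 by -0.21 ± 0.07 (unadjusted p = 0.0115 by limma). Its pools read 7.63, 7.55 and 7.46 under SAHA and 7.50, 7.64 and 7.48 under CI-994, all below the vehicle pools of 7.67, 7.84 and 7.75. Under Cpd-60 they read 7.63, 7.67 and 7.75, and overlapped vehicle. The SAHA arrays of HIP had the lower share of detected probes given above. Both Htr5b differences used the same 3 vehicle pools. In every region SAHA and CI-994 had most of their pools on the second BeadChip, and vehicle had most on the first. The Htr5b differences are not split by BeadChip here. The remaining calls were Htr6, higher in NAc by 0.20, and Htr7, lower in PFC by a difference of -0.15, both under Cpd-60. Htr6 was detected on 3 and Htr7 on 0 of the 36 arrays.

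Of 33 tests over synthesis, transport and breakdown, 2 were higher and 0 lower, beside the same 1.99% to 9.37% of all probes. Both were in 1 gene, Maob, which encodes a monoamine oxidase. In PFC it read 8.72, 8.36 and 8.19 under Cpd-60 and 8.55, 8.58 and 8.42 under CI-994, against 8.16 ± 0.14 (SD, n = 3) in vehicle, whose highest pool read 8.25. The differences were 0.26 ± 0.12 (unadjusted p = 0.0461 by limma) and 0.35 ± 0.12 (unadjusted p = 0.0105 by limma). The Cpd-60 pools overlapped vehicle and the CI-994 pools did not. Both Maob differences used the same 3 vehicle pools, and the uneven BeadChip layout of CI-994 given above holds here too. Maob is typical of astrocytes, whose list mean is given above, and the part of astrocyte content was not tested. Of 66 tests over receptor partners and RNA editing, 2 were higher and 1 lower, and of 102 tests over G proteins and effectors, 0 passed in either direction.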

How the data were processed

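RNA from PFC, NAc and HIP of mice treated with vehicle, Cpd-60, SAHA or CI-994 was hybridised to 36 Illumina MouseWG-6 arrays. The deposited table held, for 45281 probes, a non-normalized intensity and a detection p-value per array as the authors' scanner software exported them. Raw medians ran from 82.2 to 108.3 per array, and replicate number limits the precision. The study's methods used quantile normalization. Here all 36 arrays were quantile-normalized, floored at 1 and log2-transformed (R 4.3.3, limma 3.58.1). Regional tests took probes with a detection p of 0.2 or below in all 3 vehicle arrays of at least 1 compared region. Drug tests took probes that met this in at least 1 treatment group of the region, even a group not compared. Tests of drug effects between regions took probes that did so in all 3 regions. Regions were compared in vehicle mice with pool as a random block. Drugs were compared with vehicle in a 4-group fit for each region, and drug effects between regions by a moderated F test. P-values were adjusted by Benjamini-Hochberg over all probes tested, and the fits were tested on simulated data. The 7 genes and all gene lists were chosen with earlier results of these data known.

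All member probes were accounted for. The brightest tested probe of a gene led, a drug effect was described singly at an unadjusted p under 0.05, and for each gene detected on all arrays of a region the 3 most correlated genes were named. "At least" folds set the brighter group against the lowest detected signal of each dim array. Htr1d, Htr5b, Maob, Ddc and the other named pathway genes came from the lists. The alternatives were other normalization, detection filters, blocks, array sets, an ANOVA with Tukey's test that included CI-994, and each pool left out. Probe sequences were not used here. One marker gene result is not reported here.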

Additional observations from a re-analysis of the deposited data

How the results depend on the processing

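The 6 regional calls of Htr1a, Htr1b and Htr3a kept their direction and an adjusted p under 0.05 in all 19 alternatives. The Htr2a call was kept in 6 of 18 and reversed in none. The member probes called between HIP and PFC were 2, and 1 with a detection filter of 0.01, with no filter, with BeadChip as a block or with vehicle arrays alone. Over the mean of 4 treatments they were 4, and 5 between NAc and PFC. With a pool left out they were between 1 and 2. Htr3a under Cpd-60 in PFC passed an unadjusted p under 0.05 in all 20 alternatives, between 0.23 and 0.32 with a pool left out. Its smallest adjusted p among them was 0.372 by limma, and the alternatives reuse the same arrays. Under CI-994 the unadjusted call of Htr3a in PFC was lost in 3 of 19. Among them was a one-way ANOVA with Tukey's test modelled on the study's methods (Tukey-adjusted p = 0.102, against 0.0263 for Cpd-60). It left CI-994 with 0 member tests passed. Unlike those methods, it included CI-994 and did not require the ANOVA itself to pass first.

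The count of member tests past the unadjusted p over the 3 regions moved with the block. With BeadChip as a block it was 2 for Cpd-60 and 2 for CI-994, and 1 member, Htr3a, then passed the test of the Cpd-60 effect between regions. The added tests were Htr3a in NAc for Cpd-60 and Htr4 in PFC for CI-994 (0.16, unadjusted p = 0.0271 by limma). Replicate numbers were not taken to pair the arrays, since over the 3 drugs 15 of 27 same-numbered arrays correlated over 0.1 in their deviations (-0.42 to 0.71) and 10 of 27 correlated best with their own number. For Cpd-60, however, all these correlations with vehicle were positive: 0.36, 0.16 and 0.55 in PFC, 0.33, 0.48 and 0.71 in NAc, and 0.28, 0.06 and 0.42 in HIP. For SAHA and CI-994 they ran from -0.42 to 0.6. Same-numbered Cpd-60 and vehicle pools also shared a BeadChip in every region. With a replicate block the count was 2 for Cpd-60, Htr3a in NAc being the added test (0.16, unadjusted p = 0.0477 by limma), and 1 member passed between regions. CI-994 had 2 with no detection filter, Htr2a probe ILMN_2725523 in NAc being added (-0.19, unadjusted p = 0.0339 by limma). SAHA had 1 with 2 groups alone, Htr1a in HIP (0.17, unadjusted p = 0.0454 by limma). With a pool left out the counts were between 1 and 2 for Cpd-60, 0 and 1 for SAHA and 0 and 3 for CI-994. Besides Htr3a in NAc, the tests that came to pass with a pool left out were Htr4 in HIP under Cpd-60 and CI-994 (without vehicle replicate 2), Htr1b in NAc under Cpd-60 (without Cpd-60 replicate 2) and in HIP under CI-994, and Htr2a in NAc under SAHA and CI-994 (these without vehicle replicate 3). The cause was not tested.

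Over all probes, regional calls ran from 2242 to 12475 between HIP and PFC (5631 as reported), 2019 to 8871 between HIP and NAc (3647) and 2378 to 11133 between NAc and PFC (4229), lowest without vehicle replicate 2 and highest over the mean of treatments. Unadjusted calls ran from 749 to 2402 for Cpd-60 in PFC (1150), 690 to 2124 in NAc (1109) and 878 to 2352 in HIP (1224). They ran from 227 to 1245 for SAHA in PFC (499), 232 to 1286 in NAc (477) and 1291 to 3591 in HIP (2182), and from 543 to 1743 for CI-994 in PFC (881), 199 to 1223 in NAc (463) and 469 to 1491 in HIP (755). Adjusted calls reached at most 9, for Cpd-60 in PFC. Signal over background limits Htr2a, Htr2c, Htr4 and Htr5a, which were near the floor on most arrays.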
